A study of Mus musculus with 40 samples.

Results

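The 10 genes described here encode acute-phase proteins: the serum amyloid A genes Saa1, Saa2, Saa3 and Saa4, the orosomucoid genes Orm1, Orm2 and Orm3, the lipocalin gene Lcn2, the haptoglobin gene Hp and the serum amyloid P gene Apcs. They were taken by symbol from the gene count tables of mouse liver, where all 10 were found among the 40594 genes that the tables share. All 10 were also among the 12942 genes that reached at least 1 CPM (counts scaled to the depth of each library) in at least 5 of the 40 mice, which 8 of them did in all 40, Saa3 in 39 and Orm3 in 34. Levels below are CPM with library sizes adjusted by TMM factors, and a gene was called where its adjusted p was at most 0.05.

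The acute-phase response is the change in plasma protein synthesis that follows infection, injury or inflammation, and the hepatocyte is its main site. Interleukin 6 acts through its receptor subunits (Il6ra and Il6st) and the transcription factor STAT3, interleukin 1 and tumour necrosis factor act through NF-kB, and both routes join C/EBP factors at the promoters of acute-phase genes. In the mouse, SAA1 and SAA2 rise most steeply and travel on high-density lipoprotein, orosomucoids bind drugs and lipids, haptoglobin binds free hemoglobin, lipocalin 2 binds bacterial siderophores, and serum amyloid P is the mouse pentraxin of the response.

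Liver RNA from 40 male mice aged 5 months was sequenced, with 8 groups of 5 mice. Wild-type (WT) C57BL6/J mice and liver-specific PPARγ knockout (KO) mice were given a control diet, the control diet with pioglitazone (Pio), a high-fat diet (HFD) or that diet with pioglitazone (HFD-Pio) for 3 months from an age of 2 months. Pioglitazone, a thiazolidinedione agonist of PPARγ, made up 0.01% of the supplemented diets by weight, and the HFD drew 60% of its calories from fat. KO mice came from PPARγ-loxP mice crossed with Alb-Cre mice, so the albumin promoter directs the deletion to hepatocytes and the other liver cells keep the gene. The sources used here give no Cre or loxP allele for the WT mice. The whole liver was sampled, so fewer cells of a type and less RNA per cell cannot be told apart. Counts of WT and of KO mice come in different tables, whose effect cannot be told apart from that of genotype, so levels were compared within a genotype.

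Libraries held 15788242 to 49857017 counts in WT and 21542958 to 28334251 in KO mice. Pparg counts over the whole gene ran from 5.79 to 14.2 CPM in WT and from 3.01 to 9.90 CPM in KO mice, which overlap, so this sum over the gene does not separate the genotypes. The summed level of 8 hepatocyte markers was 76236 CPM or more in every library but 1. That library, KO Pio mouse 13, stood apart, with a sum of 34734 CPM and 0.908% of its counts from mitochondrial genes. In it 35.4% of tested genes were at least 2-fold below the median of its group mates, and 29.5% were at least 2-fold above that median. Without mouse 13 the share of all genes called was 0.510% in place of 9.01% for Pio against control diet and 0.0927% in place of 4.96% for HFD-Pio against Pio in KO mice. It was 15.5% in place of 3.91%, 11.6% in place of 1.08%, 6.56% in place of 1.31% and 8.68% in place of 1.22% for Pio against control diet, HFD-Pio against HFD, HFD against control diet and HFD-Pio against Pio in WT mice, whose fit shares its estimate of the spread. WT HFD mouse 829 had the lowest shares of mitochondrial (3.78%) and rRNA counts (0.0647%) among WT mice, and WT Pio mouse 845 had 21.4% of mitochondrial counts, where the other 39 mice had at most 11.4%. KO HFD mouse 9 stood apart in the acute-phase genes themselves.

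The members lie in clusters. On chromosome 7 of GRCm38, Saa3 (chr7:46711998-46715700), Saa4 (chr7:46727998-46732603) and Saa1 (chr7:46740497-46742980) are on the minus strand, and Saa2 (chr7:46751790-46754313) is on the plus strand. On chromosome 4, Orm1 (chr4:63344560-63348163), Orm3 (chr4:63356162-63359511) and Orm2 (chr4:63362449-63365878) are on the plus strand. Lcn2 (chr2:32384633-32388252), Hp (chr8:109575128-109579172) and Apcs (chr1:172893961-172895041) are single genes on minus strands. No other annotated gene overlaps any member (0 for each of the 10). Transcripts of Saa1 and Saa2 are 94.4% identical and those of Orm1 and Orm2 91.0%. The share of a transcript's 50-base words found in no other gene was 85.2% for Saa1, 90.9% for Saa2, 79.6% for Orm1 and 77.3% for Orm2, and 96.4% or more for the other 6 members, so the values of these close pairs are less certain than those of the rest.

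RefSeq promoters (GRCm38.p6, 250 bases before and 50 after the start of the gene) were held for 8 members, and Orm1 and Hp had no entry. The stretches from 250 to 51 bases before the start are shown for the neighbouring pairs Saa1 and Saa2, and Orm2 and Orm3, because these pairs are nearly copies of each other and yet moved by different amounts in the mice described next. Capitals mark matches to the C/EBP patterns TTGCNNAA and TTNNGNAAT, searched on both strands, which overlap each other in Saa1 and Saa2. Saa1 is shown from the minus strand at chr7:46743031-46743230, Saa2 from the plus strand at chr7:46751583-46751782, Orm2 from the plus strand at chr4:63362199-63362398 and Orm3 from the plus strand at chr4:63355908-63356107.
Saa1: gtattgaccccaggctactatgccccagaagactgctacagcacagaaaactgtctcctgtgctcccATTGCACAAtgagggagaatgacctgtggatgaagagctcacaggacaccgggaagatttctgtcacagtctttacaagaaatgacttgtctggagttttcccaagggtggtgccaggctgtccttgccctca
Saa2: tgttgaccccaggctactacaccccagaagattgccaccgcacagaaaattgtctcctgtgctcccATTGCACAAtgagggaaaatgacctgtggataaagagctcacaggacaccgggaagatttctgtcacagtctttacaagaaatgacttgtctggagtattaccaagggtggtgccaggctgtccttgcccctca
Orm2: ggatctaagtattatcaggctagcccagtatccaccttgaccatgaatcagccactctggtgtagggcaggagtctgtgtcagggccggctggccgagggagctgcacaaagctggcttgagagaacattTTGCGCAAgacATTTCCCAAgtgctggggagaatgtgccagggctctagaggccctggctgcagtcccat
Orm3: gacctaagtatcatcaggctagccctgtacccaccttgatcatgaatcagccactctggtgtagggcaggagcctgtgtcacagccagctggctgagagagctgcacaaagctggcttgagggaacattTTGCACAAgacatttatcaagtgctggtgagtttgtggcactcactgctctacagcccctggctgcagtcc

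Over the whole 300-base windows, the Saa1 and Saa2 promoters were 96.0% identical and the Orm2 and Orm3 promoters 89.5%. TTGCNNAA occurred in 7 of the 8 member promoters, all but that of Apcs, and in 10.8% of the 32851 promoters of the table. TTNNGNAAT occurred in 3 of the 8 (Saa1, Saa2 and Orm2) and in 11.5% of all promoters. The first match lay 183 bases before the start in Saa1, 184 in Saa2, 120 in Orm2, 121 in Orm3, 99 in Saa3 and 216 in Lcn2. The STAT3 pattern TTCNNNGAA, or the same with 1 more N, occurred in 2 of the 8 (Apcs and Lcn2) and in 14.6% of all promoters. The NF-kB patterns searched, which all begin with a run of G bases, occurred in 0 of the 8 and in 23.0% of all promoters. The HNF1 pattern searched occurred in 0 of the 8 and in 0.399%. Other forms of these sites were not searched, so a count of 0 does not show that the promoters lack such sites. These matches describe letters in the windows and were not tested for binding.

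Levels per kilobase used the length of 1 transcript per gene, which for Saa1 was 609 bases against 2478 for all its exons. On this scale Hp was the most abundant member in every group, with group medians of 1068 to 4060 CPM per kb. Orm1 followed in 6 of the 8 groups at 576 to 796 CPM per kb, and Saa4 took that place in WT HFD and WT HFD-Pio mice at 548 and 352. The inducible genes were lower in the typical mouse, with medians of 66.6 to 224 CPM per kb for Saa1, 23.4 to 68.4 for Saa2, 10.3 to 75.8 for Lcn2, 14.1 to 45.5 for Apcs and 8.43 to 28.8 for Orm2. Saa3, the form made mainly outside the hepatocyte, and Orm3 were at the bottom, from 2.82 to 6.55 and from 1.12 to 10.9 CPM per kb. Together the members took 0.316% to 0.724% of the counts of WT mice. In KO mice they took 0.150% to 5.67%, with a median of 0.423%, and the highest share was that of HFD mouse 9.

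**Figure D1:**
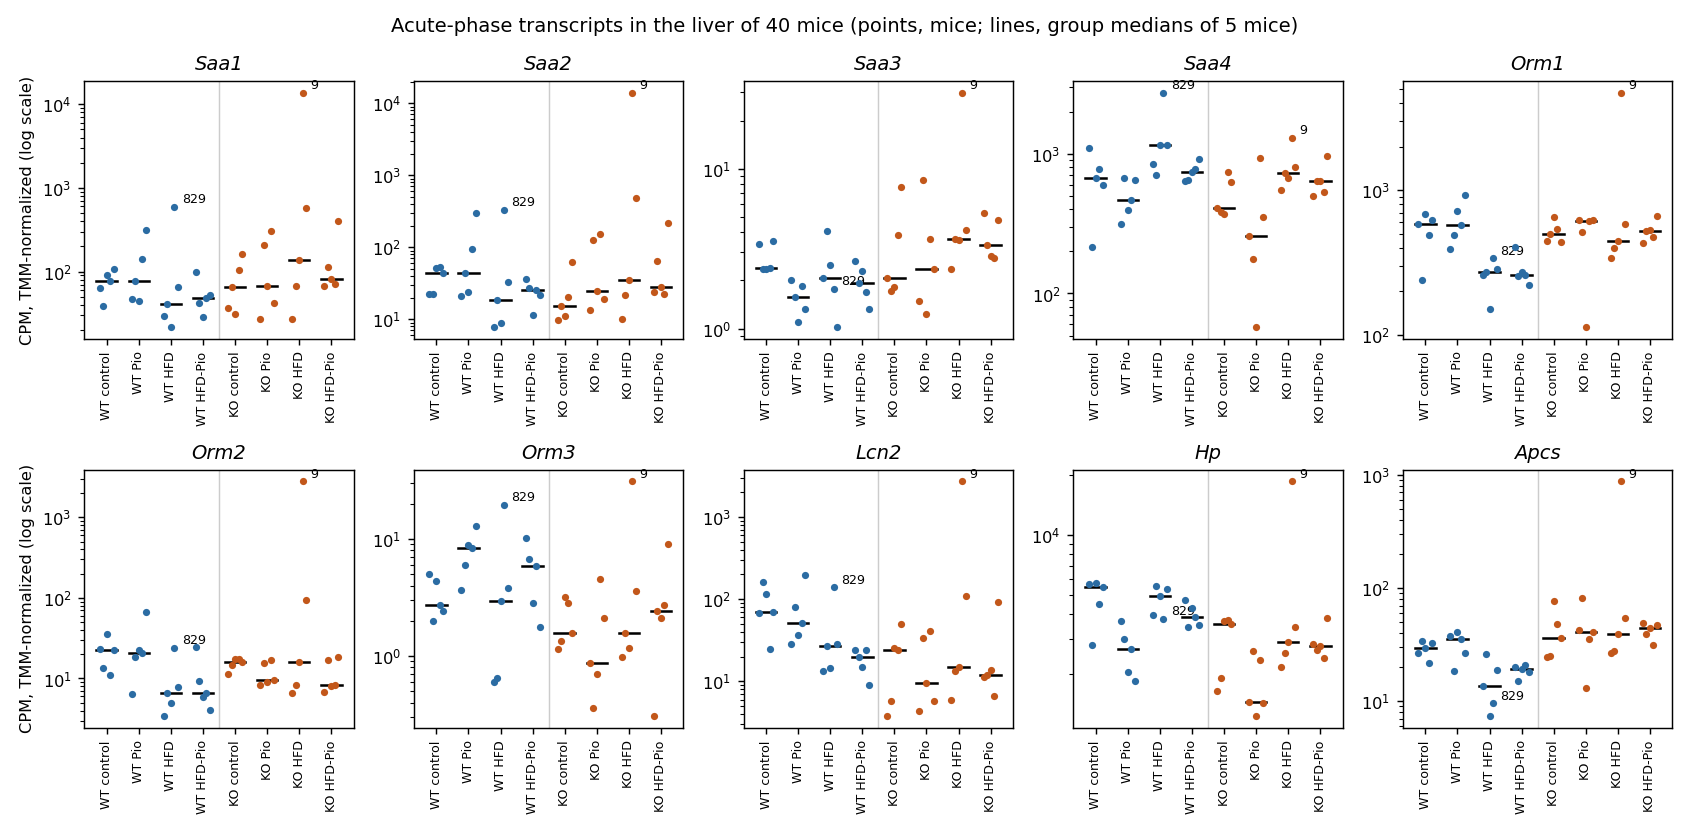
CPM of each of the 10 acute-phase genes (log scale) in all 40 mice, 1 panel per gene and 1 column of 5 points per group (WT in blue, KO in orange), with a line at the group median and the numbers of mice 829 and 9. KO HFD mouse 9 stands at 13716 CPM for Saa1 and 2790 CPM for Orm2, far above the other 4 mice of its group.

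Single mice carried the acute-phase signal. For each gene, the CPM of a mouse was divided by the median of the other 4 mice of its group, and members at least 2-fold above were counted. In 23 of the 40 mice 0 members were that far above, and in 8 mice 4 or more were, a limit set after the values were seen. These were WT Pio mouse 845 and WT HFD mouse 829, KO control mouse 5, KO Pio mice 12 and 14, KO HFD mice 9 and 10, and KO HFD-Pio mouse 20. No mouse of the WT control and WT HFD-Pio groups was among them. Saa1, Saa2 and Lcn2 were raised in 8 of these 8 mice, Orm2 and Orm3 in 5, Saa3 in 3, Saa4 and Apcs in 2, and Orm1 and Hp in 1. Since the 8 mice were picked by these values, the counts describe them and test nothing.

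KO HFD mouse 9 had the fullest response, with 9 of the 10 members at least 2-fold above its group mates, against 7.37% of all tested genes in that mouse. Saa2, at 10.0, 22, 34.7 and 486 CPM in mice 6, 7, 8 and 10 of the group, stood at 13992 CPM in mouse 9, 493-fold above the median of the others. Saa1 was at 27.0, 66.6, 137 and 571 CPM in those mice and at 13716 CPM in mouse 9, 135-fold above. No other KO mouse had more than 571 CPM of Saa1 or 486 CPM of Saa2, the values of mouse 10.

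The orosomucoid genes of mouse 9 were raised by unequal amounts. Orm2 was at 6.61, 8.32, 16.1 and 93.1 CPM in mice 6, 7, 8 and 10 and at 2790 CPM in mouse 9, which is 229-fold. Orm1, the abundant form, was at 342, 400, 447 and 587 CPM and at 4743 CPM in mouse 9, which is 11.2-fold. Orm3 was at 0.986, 1.56, 1.16 and 3.56 CPM and at 30.9 CPM in mouse 9, 22.7-fold above. In each of the 3 genes the other 4 mice lay below mouse 9.

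Of the remaining members, Lcn2 was at 5.92, 13.2, 14.9 and 108 CPM in mice 6, 7, 8 and 10 and at 2705 CPM in mouse 9, 192-fold above. Apcs was at 26.5, 27.8, 39.1 and 54.7 CPM and at 876 CPM in mouse 9, 26.2-fold above. Hp was at 2163, 2537, 2895 and 3457 CPM and at 18625 CPM in mouse 9, 6.86-fold above. Mouse 9 was thus highest in both low and abundant members. Saa3 was at 2.34, 3.63, 3.57 and 4.15 CPM and at 29.8 CPM in mouse 9, 8.29-fold above. Saa4, the constitutive form of serum amyloid A, was at 547, 732, 668 and 807 CPM and at 1303 CPM in mouse 9, and at 1.86-fold it was the only member below the 2-fold limit.

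KO HFD mouse 10 was second in its group for Saa1, Saa2, Orm2, Orm3 and Lcn2, at 571, 486, 93.1, 3.56 and 108 CPM. These 5 members were 2-fold or more above the median of the other 4 mice, against 1.10% of all genes in mouse 10. The fold was 17.1 for Saa2, 7.70 for Lcn2, 7.63 for Orm2, 5.61 for Saa1 and 2.61 for Orm3. Hp and Apcs of mouse 10 were at 3457 and 54.7 CPM, below that limit.

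WT HFD mouse 829, the WT library with the lowest mitochondrial share, had 6 members raised, against 7.51% of all genes in that mouse, and 8.91% of all genes were at least 2-fold below. Its Saa1 was at 591 CPM, with 29.7, 40.5, 21.7 and 66.2 CPM in the other mice of the group, and its Saa2 at 329 CPM, with 7.79, 18.5, 8.97 and 32.7 CPM. The fold was 24.0 for Saa2, 16.8 for Saa1, 11.0 for Orm3, 6.64 for Lcn2, 4.18 for Orm2 and 2.73 for Saa4. Unlike in mouse 9, Saa4 reached 2733 CPM, the highest level among the 20 WT mice, while Hp, Apcs and Saa3 were 0.734-fold, 0.588-fold and 0.775-fold the median of the group mates. Of 5 blood markers 3 were at least 2-fold below in mouse 829, with the hemoglobin gene Hbb-bs at 0.238-fold. The part of the library in these values was not tested.

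The other 5 mice had smaller rises. WT Pio mouse 845 had 4 members raised (Saa2 8.69-fold, Saa1 5.06-fold, Lcn2 4.51-fold and Orm2 3.42-fold), against 3.65% of all genes, in the library with 21.4% of mitochondrial counts. KO HFD-Pio mouse 20 had 5 (Saa2 8.39-fold, Lcn2 8.07-fold, Saa1 5.23-fold, Orm3 3.99-fold and Orm2 2.23-fold), against 1.5%. KO Pio mouse 14 had 5 (Saa2 7.02-fold, Orm3 5.83-fold, Saa1 5.51-fold, Lcn2 5.36-fold and Saa4 4.28-fold), against 1.02%. In each of these 3 mice Saa2 led. KO Pio mouse 12 had 5 (Saa2 5.66-fold, Saa3 4.40-fold, Lcn2 4.40-fold, Saa1 3.76-fold and Apcs 2.12-fold), against 3.18%. KO control mouse 5 had 4 (Saa2 4.76-fold, Saa3 3.97-fold, Lcn2 3.36-fold and Saa1 3.16-fold), against 3.19%. Saa3 was raised in these last mice and in mouse 9 alone among the 8. In the opposite direction, KO Pio mouse 13 had 7 members at least 2-fold below its group mates, against 35.4% of all genes in that mouse, and its Orm1, at 113 CPM, was below the 517 to 628 CPM of the others.

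**Figure D2:**
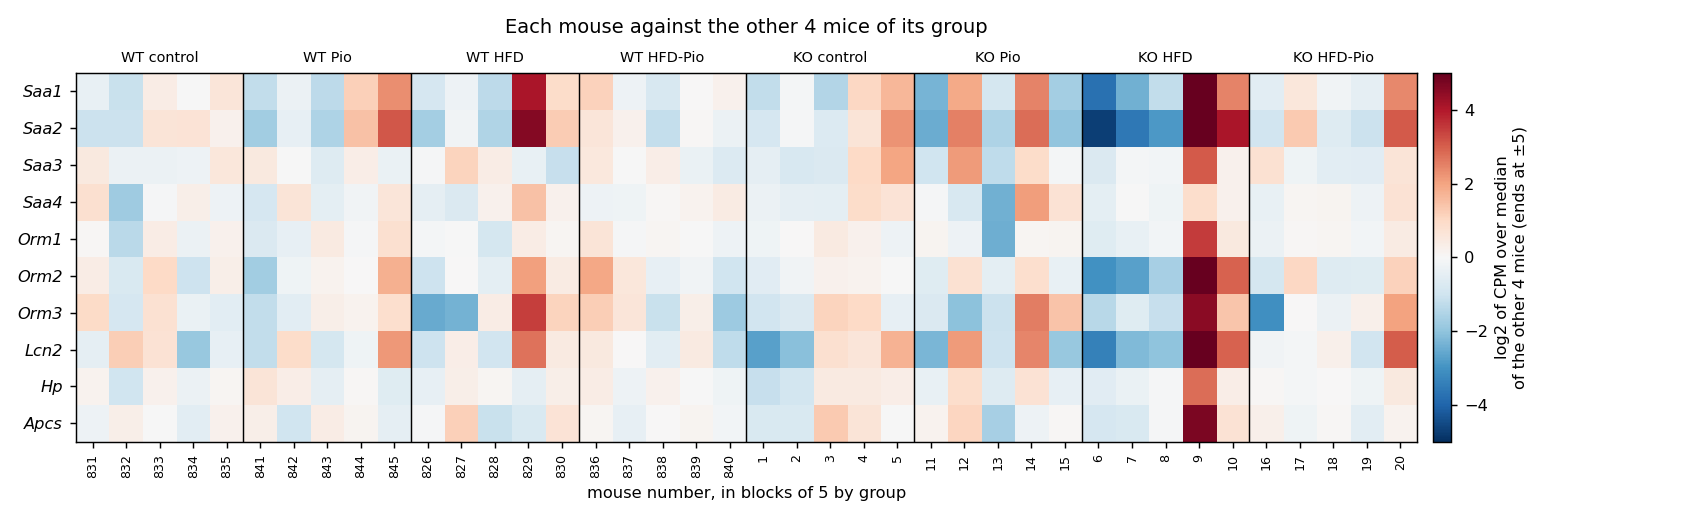
Each of the 10 genes (lines) in each of the 40 mice (columns, in blocks of 5 by group), coloured by the log2 of CPM over the median of the other 4 mice of the group, with the colour scale ending at ±5. The strongest red column is KO HFD mouse 9, followed by columns 829, 10, 20, 845 and 14, and Hp passes 2-fold only in mouse 9.

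Other genes of the response were followed through lists. Of 26 other positive acute-phase genes, 20 were at least 2-fold above the group mates in mouse 9, with a median of 4.20-fold over the list. The metallothioneins Mt2 and Mt1, which bind zinc, were 104-fold and 64.8-fold above, and Il1rn, which encodes the interleukin 1 receptor antagonist, was 15.1-fold above. The protease inhibitor gene Serpina3n was 7.89-fold above and the heme carrier gene Hpx 7.31-fold. The fibrinogen chain genes Fga, Fgb and Fgg were 5.13-fold, 4.31-fold and 4.73-fold above, and C3, the central complement component, 2.89-fold. Crp, a minor acute-phase gene in the mouse, was 1.62-fold above.

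Of 12 negative acute-phase genes, 0 were 2-fold or more below in mouse 9, and the median was 0.959-fold. The transthyretin gene Ttr was at 0.527-fold, the retinol carrier gene Rbp4 at 0.549-fold and Alb, for albumin, at 0.672-fold. Trf, for transferrin, was 2.53-fold above. The list thus did not mirror the positive genes in this mouse.

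In the signalling lists of mouse 9, 5 of 17 receptors and kinases, 5 of 14 transcription factors and 5 of 9 tested feedback inhibitors were raised. Socs3, the STAT3 target that feeds back on the interleukin 6 receptor, was at 132 CPM against a median of 8.71, which is 15.1-fold. The oncostatin M receptor gene Osmr was 6.88-fold above, Tlr2, for a bacterial lipoprotein receptor, 4.15-fold and Il1r1, for the interleukin 1 receptor, 3.90-fold. Among the factors, Bcl3, an NF-kB partner, was 4.04-fold, Cebpd 2.15-fold and Stat3 2.13-fold above, while Cebpb was at 1.04-fold. Il6st was at 1.81-fold and Il6ra at 0.670-fold. Of 10 ligand genes 3 were past the filter, and Il1b was 2.43-fold above.

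Socs3 was also above in most of the other mice with raised members, at 11.1-fold in mouse 20, 9.29-fold in mouse 829, 4.29-fold in mouse 5, 2.65-fold in mouse 14 and 2.35-fold in mouse 10. It was at 1.52-fold in mouse 845 and 0.396-fold in mouse 12. Mouse 13, with low members, had Socs3 11.5-fold above its group mates, in a library where 29.5% of all tested genes were at least 2-fold above. The number of other positive acute-phase genes raised, of 26, was 7 in mouse 20, 4 in mice 829, 5 and 12, 3 in mouse 14, and 2 in mice 10 and 845, so mouse 9 had the widest response of the 8.

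Markers of other cells were raised in mouse 9 and in some, but not all, of the other mice with raised members. All 7 tested neutrophil markers (of 10 listed) were raised in mouse 9, and their summed level was 570 CPM, where the group's lowest mouse had 3.20 and its median mouse 7.27. Mpo and Elane, genes of neutrophil precursors, were 409-fold and 189-fold above, and S100a8 and S100a9, of mature neutrophils, 50.5-fold and 46.5-fold. Macrophage and Kupffer cell markers summed to 972 CPM in mouse 9 against a group median of 438, with 6 of 9 raised, and 4 of 5 blood markers were raised. The hepatocyte marker sum of mouse 9 was 77943 CPM, the lowest of the group, against a group median of 106561 and a highest value of 110097. The part of these markers in the result was not tested.

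The neutrophil sum was 27.6 CPM in mouse 10, with 6 of 7 markers raised, and 23.5 CPM in mouse 20, the highest of its group, where 2 of 7 were raised (S100a9 and S100a8), 2 were lowered and the median was 1.21-fold. It was 4.96 CPM in mouse 829 and 6.71 CPM in mouse 845, at or below their group medians of 6.74 and 6.71, and none of the 7 markers was raised in mouse 14, at 10.8 CPM. Saa1, Saa2 and Lcn2 were raised in mice 10, 20, 829, 845 and 14 alike, and the part of neutrophils in this was not tested. Mouse 10 also had a pancreatic acinar marker sum of 670 CPM against a group median of 23.9. Immediate early genes, which respond within minutes to stress, were raised in 6 of 12 in mouse 9 (Btg2 6.61-fold and Junb 3.13-fold among them). The number was 9 of 12 in mouse 5 and 7 of 12 in mouse 20. It was 9 of 12 in mouse 13, where 29.5% of all tested genes were raised. In mouse 12, 2 of 9 macrophage and Kupffer cell markers (Marco 4.52-fold and Cd68 2.78-fold) and 3 of 6 markers of stellate cells and fibroblasts, led by the collagen gene Col1a1 at 5.81-fold, were raised. The part of these genes in the members' values was not tested.

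**Figure D3:**
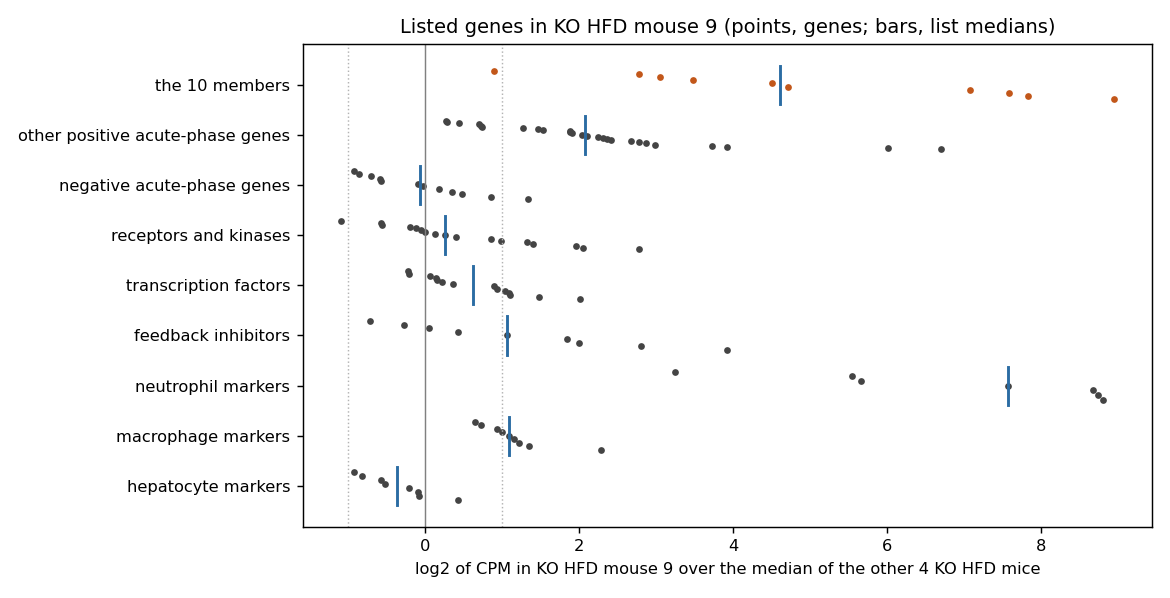
Log2 of CPM in KO HFD mouse 9 over the median of the other 4 KO HFD mice for each tested gene of 9 lists, with 1 point per gene, a bar at the list median and dotted lines at 2-fold above and below. The members and the neutrophil markers lie highest, and the bar of the negative acute-phase genes is near 0, at 0.959-fold.

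HFD was compared with control diet in KO mice. All 10 members had a positive log2 fold change, with a median of 2.10 against -0.010 over all tested genes. Saa2 and Orm2 were called, 2 of the 10, against 0.185% of all genes. Both calls were lost without mouse 9, and also without any 1 of the 5 control mice, where the fold changes stayed close to those of all mice.

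Saa2 in KO control mice was at 9.88, 15.3, 11.0, 20.6 and 62.6 CPM, a range that holds mice 6, 7 and 8 of the HFD group entirely. Its log2 fold change was 6.93 (SE 1.51) with an adjusted p of 0.0308 in the quasi-likelihood test of edgeR, adjusted by the Benjamini-Hochberg method. Without mouse 9 the value for Saa2 was 2.53 (SE 1.03, adjusted p = 1.00), and without mice 9 and 10 it was -0.11. With control mouse 1, 2, 3, 4 or 5 left out the adjusted p of Saa2 in edgeR's test was 0.139, 0.131, 0.124, 0.129 or 0.0641, at log2 fold changes of 6.73 to 7.68. Orm2 in KO control mice was at 11.3, 14.7, 17.5, 17.4 and 15.9 CPM, and 2 of the 5 HFD mice were above them all. Its log2 fold change was 5.25 (SE 1.06, adjusted p = 0.0174 in the same edgeR test), which became 1.01 without mouse 9 and -0.57 without mice 9 and 10. With 1 control mouse left out the adjusted p of Orm2 in edgeR's test was 0.0521 to 0.0769, at log2 fold changes of 5.15 to 5.32.

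Saa1, Lcn2 and Apcs came next and were not called. Saa1 in KO control mice was at 36.4, 66.2, 31.2, 105 and 162 CPM, and its log2 fold change was 5.18 (SE 1.21, adjusted p = 0.0637 in edgeR's test). Lcn2 was at 3.81, 5.79, 25.7, 23.8 and 49.7 CPM in KO control mice, with a log2 fold change of 4.71 (SE 1.20, adjusted p = 0.123 in edgeR's test). Apcs was at 24.6, 25.2, 77.0, 48.2 and 36.5 CPM, with a log2 fold change of 2.28 (SE 0.62, adjusted p = 0.198 in edgeR's test). Control and HFD mice overlapped in each of these genes, and without mouse 9 the values were 1.32 for Saa1, 0.71 for Lcn2 and -0.20 for Apcs. DESeq2, a second count test, called these 3 genes as well as Saa2 and Orm2. Limma with sample quality weights, edgeR with no filter and edgeR on mice of 1 genotype called no member in this comparison. The shares of all genes called by these fits are not given here.

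The other 5 members had adjusted p values of 0.654 or more. Their log2 fold changes were 1.93 for Orm3, 1.34 for Orm1, 1.34 for Saa3, 1.03 for Hp and 0.68 for Saa4. Without mouse 9 they were -0.15, -0.22, -0.01, -0.08 and 0.44 in the same order, and 0 of the 10 members were called, with 1 at an unadjusted p below 0.05. Exact two-sided permutation tests of the 5 HFD against the 5 control mice, whose smallest possible p is 0.00794, gave a p below 0.05 for 0 members in KO mice on HFD.

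**Figure D4:**
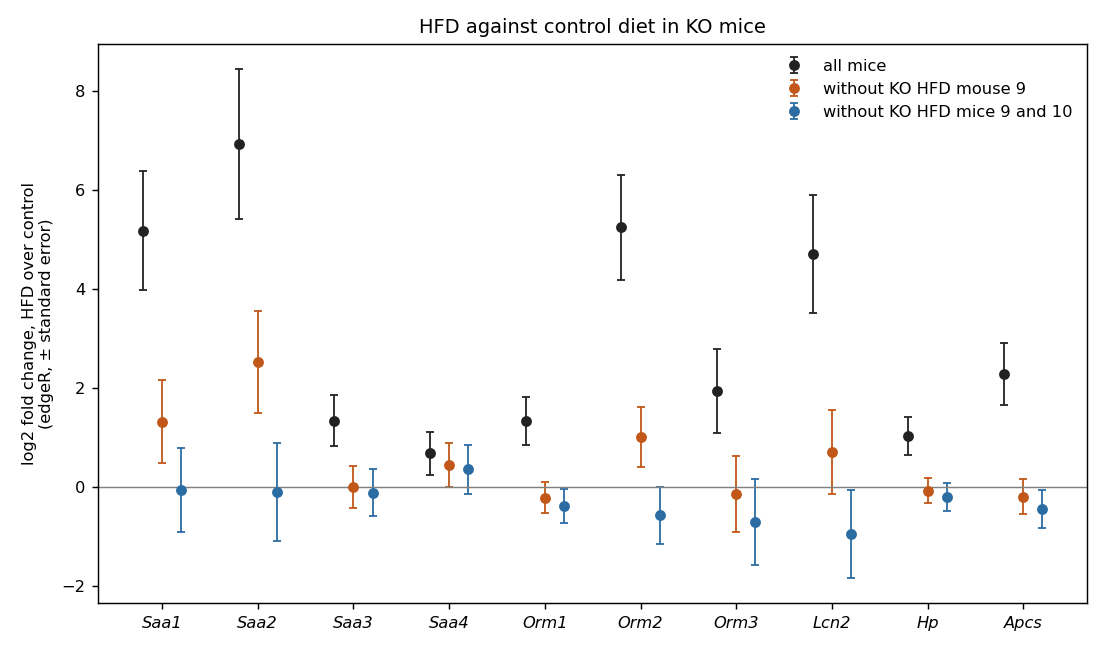
Log2 fold change of each of the 10 genes for HFD against control diet in KO mice, with bars of 1 SE, from all 40 mice, without KO HFD mouse 9 and without mice 9 and 10. With both mice left out, 9 of the 10 values are below 0.

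HFD-Pio was then compared with HFD in KO mice, where the HFD group again holds mice 9 and 10. All 10 log2 fold changes were negative, with a median of -1.80 against 0.00073 over all genes. Orm2 was called, 1 of the 10, against 0.0155% of all genes (2 of 12942). Orm2 in KO HFD-Pio mice was at 6.82, 16.8, 8.14, 8.28 and 18.3 CPM, inside the range of HFD mice 6, 7 and 8 but for the highest pair. Its log2 fold change was -5.64 (SE 1.08, adjusted p = 0.0490 in edgeR's quasi-likelihood test), and it was -1.41 without mouse 9, with an adjusted p of 1.00 in edgeR's test. The call held only where HFD mouse 6, 7, 8 or 10 was left out, and leaving out any other mouse but 9 gave adjusted p values of 0.0577 to 0.354 in edgeR's test.

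Saa1 in KO HFD-Pio mice was at 67.9, 113, 81.7, 71.0 and 399 CPM, and its log2 fold change was -4.31 (adjusted p = 0.764 in edgeR's test). Saa2 was at 23.8, 65.0, 28.5, 22.2 and 220 CPM, with a log2 fold change of -5.34 (adjusted p = 0.764 in edgeR's test). Lcn2 was at 11.3, 11.8, 13.8, 6.68 and 93.3 CPM, with a log2 fold change of -4.38 and the same adjusted p in edgeR's test. In all of these genes mouse 20 was the highest of the HFD-Pio mice and the others lay among HFD mice 6, 7 and 8 or near them. Apcs and Hp had log2 fold changes of -2.28 and -1.04, which were 0.19 and 0.06 without mouse 9. The comparison shares its HFD mice with that of HFD against control diet, so the opposite signs are not independent.

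Pio against control diet in KO mice called 0 of the 10 members in edgeR's test, against 9.01% of all genes, with 0 members at an unadjusted p below 0.05 and 0 members called by DESeq2. Hp was at 1632, 1907, 3694, 3714 and 3570 CPM in KO control mice and at 1436, 2592, 1226, 2347 and 1417 CPM in KO Pio mice. The groups overlapped, and the log2 fold change of Hp was -0.69 (SE 0.38, adjusted p = 0.238 in edgeR's test). Saa2 was at 13.3, 125, 24.9, 154 and 19.2 CPM in KO Pio mice, high in mice 12 and 14 and near the controls in the rest, with a log2 fold change of 1.49 (adjusted p = 0.423 in edgeR's test). Without mouse 13 the values were -0.56 for Hp and 1.72 for Saa2, with 0 of the 10 members called.

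HFD-Pio against Pio in KO mice called 0 of the 10 in edgeR's test, against 4.96% of all genes, with 0 members at an unadjusted p below 0.05 and 0 called by DESeq2. Hp was at 2817, 2621, 2766, 2402 and 3814 CPM in KO HFD-Pio mice, of which 4 were above every Pio mouse. Its log2 fold change was 0.68 (adjusted p = 0.283 in edgeR's test), with an exact permutation p of 0.0159, two-sided, which is 0.254 after adjustment over 80 such tests. Saa4 was at 257, 178, 57.4, 929 and 355 CPM in KO Pio mice and at 497, 633, 641, 528 and 957 CPM in KO HFD-Pio mice. The groups overlapped through mouse 14, and the log2 fold change of Saa4 was 0.87 (adjusted p = 0.212 in edgeR's test). Without mouse 14 the log2 fold change of Saa4 was 1.62, with an adjusted p of 0.0113 in edgeR's test. That fit keeps mouse 13, the library that stood apart, with its 57.4 CPM. Over all fits with a single mouse left out the value ran from 0.60 to 1.62. The share of all genes called without mouse 14 is not given here.

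In WT mice edgeR's test called 0 of the 10 members in each of the 4 comparisons. Called genes made up 3.91% of all genes for Pio against control diet, 1.08% for HFD-Pio against HFD, 1.31% for HFD against control diet and 1.22% for HFD-Pio against Pio. Members with an unadjusted p below 0.05 numbered 1, 0, 2 and 1 in that order, and DESeq2 called 0 members in each. Limma with sample quality weights, the method of the study, called 1, 0, 1 and 2 members. The shares of all genes called by limma, and of those at an unadjusted p below 0.05, are not given here. These counts therefore do not single out the members. Of 80 exact two-sided permutation tests of single members in both genotypes, 11 had a p below 0.05, the lowest adjusted p was 0.254, and 10 of the 11 were in WT mice.

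For Pio on control diet in WT mice, Saa3, Hp and Orm3 had the lowest exact p values, and none passed edgeR's adjusted test. Saa3 was at 3.36, 2.35, 2.36, 2.38 and 3.52 CPM in WT control and at 2.01, 1.56, 1.09, 1.83 and 1.33 CPM in WT Pio mice. These ranges did not overlap, which held for 7.53% of all genes in this comparison, and the log2 fold change was -0.82 (adjusted p = 0.457 in edgeR's test, exact permutation p = 0.00794). Hp was at 5649, 2786, 5712, 4516 and 5461 CPM in WT control and at 3676, 2993, 2047, 2653 and 1844 CPM in WT Pio mice. Only WT control mouse 832 lay within the Pio range, and the log2 fold change of Hp was -0.87 (SE 0.38, adjusted p = 0.214 in edgeR's test, exact permutation p = 0.0238). Limma called this change of Hp. Orm3 was at 5.02, 1.97, 4.35, 2.72 and 2.44 CPM in WT control and at 3.66, 5.93, 8.83, 8.43 and 12.9 CPM in WT Pio mice, with a log2 fold change of 1.27 (adjusted p = 0.453 in edgeR's test, exact permutation p = 0.0317).

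For HFD without Pio in WT mice, Orm1 and Apcs had the lowest exact p values, with negative log2 fold changes, and Saa4 had the lowest p of edgeR's test, with a positive one. None of the 3 passed edgeR's adjusted test. Orm1 was at 583, 239, 688, 492 and 628 CPM in WT control and at 259, 271, 151, 339 and 287 CPM in WT HFD mice. Only control mouse 832 lay within the HFD range, and the log2 fold change was -1.01 (SE 0.48, adjusted p = 0.353 in edgeR's test, exact permutation p = 0.0397), which limma called. Apcs was at 26.4, 33.9, 29.6, 21.8 and 32.8 CPM in WT control and at 13.7, 26.2, 7.40, 9.52 and 18.7 CPM in WT HFD mice, where 4 of 5 were below every control. Its log2 fold change was -0.93 (adjusted p = 0.549 in edgeR's test, exact permutation p = 0.0159). Saa4 was at 1102, 213, 669, 781 and 600 CPM in WT control and at 851, 702, 1148, 2733 and 1150 CPM in WT HFD mice, which overlap. The log2 fold change of Saa4 was 0.97 (SE 0.43, adjusted p = 0.312 in edgeR's test, exact permutation p = 0.0714), and 0.52 without mouse 829.

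Saa1 and Saa2 show how 1 mouse set the sign in WT mice on HFD. Saa1 was at 64.4, 39.0, 91.8, 76.9 and 107 CPM in WT control mice, and Saa2 at 22.7, 22.4, 51.8, 53.5 and 43.7 CPM. Beside the 591 and 329 CPM of mouse 829, 2 of the other 4 WT HFD mice were below every control for Saa1 and 3 of them for Saa2. The log2 fold change was 0.98 for Saa1 and 1.03 for Saa2 (adjusted p = 0.751 and 0.782 in edgeR's test), and -0.94 and -1.19 without mouse 829. For HFD-Pio against HFD, which shares mouse 829, Saa1 was at -1.46 and Saa2 at -1.70 with all mice, and at 0.46 and 0.53 without it. Lcn2 was at -1.27 with and -0.18 without mouse 829.

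For HFD-Pio against Pio in WT mice, Lcn2, Orm1 and Apcs had negative log2 fold changes that did not pass edgeR's adjusted test. Lcn2 was at 28.2, 81.3, 36.2, 50.7 and 196 CPM in WT Pio and at 24.4, 19.9, 15.1, 23.7 and 9.15 CPM in WT HFD-Pio mice. These ranges did not overlap, as for 6.49% of all genes, and the log2 fold change was -2.09 (adjusted p = 0.376 in edgeR's test, exact permutation p = 0.00794). Orm1 was at 392, 494, 724, 580 and 931 CPM in WT Pio and at 407, 257, 275, 260 and 222 CPM in WT HFD-Pio mice, where 4 of 5 were below every Pio mouse. Its log2 fold change was -1.14 (adjusted p = 0.252 in edgeR's test, exact permutation p = 0.0159), and limma called it. Apcs had a log2 fold change of -0.78 (exact permutation p = 0.0317). Hp and Saa4 went the other way, at 0.58 and 0.57 (exact permutation p = 0.0238 and 0.0476), and limma called Hp.

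Differences between effects were also tested. EdgeR called 0 of the 10 members in each of the 6 differences. Members with an unadjusted p below 0.05 numbered 7 in the HFD effects without Pio, KO minus WT, and 5 in the Pio effects on HFD, KO minus WT. They numbered 5 in the Pio effects on HFD minus control diet in KO mice, and 0 in the other 3. Each difference with such members holds the KO HFD group and its mouse 9. The share of all genes at that unadjusted p is not given here. In the difference of the HFD effects without Pio, KO minus WT, 0.0618% of all genes were called, and Orm2 was at 6.41 (adjusted p = 0.0530 in edgeR's test), where DESeq2 called 5 members. In the difference of the Pio effects on HFD, KO minus WT, 0.0927% of all genes were called, and Orm2 was at -5.74 (adjusted p = 0.116 in edgeR's test), where DESeq2 called 1 member. Without KO HFD mouse 9, Orm2 was at 2.20 and -1.54. The share of all genes called was 7.87% for the Pio effects on control diet and 0.0155% for the HFD effects with Pio, KO minus WT, and 0.0773% in WT and 0% in KO mice for the Pio effects on HFD minus control diet.

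The pathway genes were followed across the same 8 comparisons. Il6ra, Il6st, Stat3, Socs3, Cebpb and Cebpd were called in 0 of the 8 in edgeR's test. An unadjusted p below 0.05 was found in 5 of these 48 tests, of which 3 were of Cebpb, with no share of all genes given beside it. For Pio against control diet in WT mice, 2 of 14 transcription factors fell (Relb by 2.07 and Nfkb1 by 0.64 on the log2 scale) and 2 of 9 feedback inhibitors fell (Tnfaip3 by 1.75 and Nfkbia by 0.81). The share of all genes called was 3.91%. Relb and Nfkb1 encode NF-kB subunits, and Nfkbia and Tnfaip3 inhibitors of NF-kB signalling. The subunit genes Rela, Nfkb2 and Rel were not called, at -0.65, -1.13 and -0.06, nor were Bcl3 at -0.94, Nfkbiz at -0.27 and Nfkbib at -0.08. Cd14, a lipopolysaccharide receptor and 1 of 26 other positive acute-phase genes, was called at -1.82. In the other WT comparisons 0 genes of the acute-phase and signalling lists were called. These counts depended on KO Pio mouse 13, without which 11 of the 81 tested genes of these lists, Rela, Nfkb2 and Cebpb among them, were called for Pio against control diet in WT mice (10 lower and 1 higher), in place of 5. For HFD against control diet there were then 8 of the 81 in WT mice, and for HFD-Pio against HFD and against Pio 4 each. The share of all genes called also rose in each of these WT comparisons without mouse 13, as given with the libraries above. These counts therefore do not single out the listed genes.

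For Pio against control diet in KO mice, Cebpa, which encodes a hepatocyte C/EBP factor, and Irf1, an interferon-induced factor, were called with log2 fold changes of 1.62 and 0.86, as were the feedback inhibitors Socs1 at 2.22 and Nfkbib at 1.22 and the ligand gene Ctf1 at 0.96. Mouse 13 is in this Pio group. There, 9 of 14 transcription factors and 7 of 9 feedback inhibitors were at least 2-fold above the group mates. So were 29.5% of all tested genes in that mouse. Of the 5 genes called above, 0 were called without mouse 13. The log2 fold changes without mouse 13 were -0.05 for Cebpa, 0.48 for Irf1, 0.03 for Socs1, 0.07 for Nfkbib and 0.16 for Ctf1. For HFD against control diet in KO mice, 0 of 26 other positive acute-phase genes were called and 7 had an unadjusted p below 0.05. No share of all genes at that unadjusted p is given here. The called genes of the other lists were Apoa4, an apolipoprotein, at -2.16 and 4 of 7 neutrophil markers, led by Mpo at 8.09, Ngp at 7.36 and Ltf at 6.41. Without mouse 9 these 3 markers were at 3.91, 3.05 and 2.07 and were not called, while Apoa4 was at -2.40 and was called. For HFD-Pio against HFD in KO mice, the neutrophil gene Elane at -5.54 was called beside Orm2, and these were the only genes called of all 12942. Elane was at -1.84 without mouse 9 and at -5.58 without mouse 13, and was called in neither fit. For HFD-Pio against Pio in KO mice, Apoa4 was called at -1.94 and Ctf1 at -1.10, and without mouse 13 they were at -1.72 and -0.29 and were not called.

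Ratios of close paralogs, which share a library and its depth, also set mouse 9 apart. Saa2 over Saa1 was 0.197 to 1.02 in KO and 0.263 to 0.949 in WT mice, with medians of 0.370 and 0.510. It was 1.02 in mouse 9, 0.949 in mouse 845 and 0.852 in mouse 10, and between 0.386 and 0.603 in the other 5 mice with raised members. Orm2 over Orm1 was 0.588 in mouse 9 and 0.159 in mouse 10. In KO Pio mouse 13, where Orm1 was low, it was 0.0795. It was at most 0.0722 in WT mice, with the highest value in mouse 845 and 0.0712 in mouse 829. The ratios thus rose in some but not all mice with a response, and reads shared between paralogs limit their precision.

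**Figure D5:**
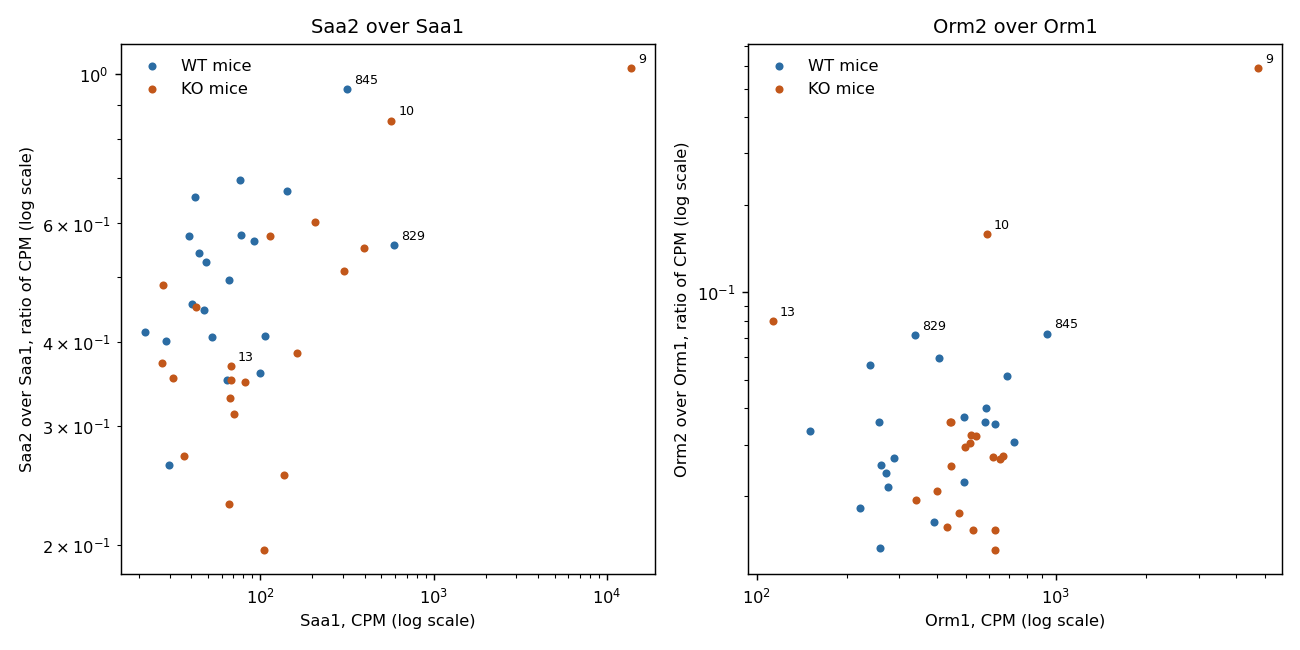
Ratio of Saa2 to Saa1 against the Saa1 level (left) and of Orm2 to Orm1 against the Orm1 level (right) in all 40 mice, as CPM on log scales, with WT mice in blue, KO mice in orange and 5 mice numbered. KO HFD mouse 9 has the highest value of both ratios, 1.02 and 0.588. The ratio shares a term with the axis below it.

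Correlations within groups were described in each genotype. Deviations of log2 CPM from the group mean had a Spearman rho with a median of 0.606 over the 45 pairs of members in the 20 KO mice, where 45 of 45 were positive, and of 0.202 in the 20 WT mice, where 29 of 45 were. In KO mice the median was 0.498 without mouse 9 (45 of 45 positive), 0.621 without mouse 13 (45 of 45) and 0.527 without both (43 of 45). The pairs share libraries and depth, and the difference between genotypes was not tested. Of 9273 other genes that averaged 5 CPM or more, those that followed Saa1 most closely in both genotypes included Ypel2, Stat3, Prg4 and Arl13b. The lower rho of the genotypes was 0.66 for Ypel2 and 0.61 for Stat3, and without mouse 9 the rho in KO mice was 0.46 for Ypel2 and 0.57 for Stat3. Those that followed Lcn2 were Nrg4, Tmprss2, Abhd2, Tgm2 and Il1rn, with a lower rho of 0.77 for Nrg4 and 0.67 for Il1rn, and a rho in KO mice without mouse 9 of 0.72 and 0.58. These correlations over 20 mice per genotype describe the libraries.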

How the data were processed

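Gene counts of 40 livers were analysed. The authors selected poly-A RNA, aligned it to GRCm38 with STAR 2.0.4b and counted uniquely aligned reads per gene with featureCounts 1.4.5 of Subread, per the labels and the methods of the study. Whole-number counts of this kind, not normalized, were deposited in 1 table per genotype. All columns matched a sample (0 without a match). Repeated lines (598 in KO, 574 in WT, 0 differing) were reduced to 1, 40594 genes were joined by identifier, 96 found in the WT table alone were left out, and 355 rRNA genes and 27297 genes that reached 1 CPM in fewer than 5 mice were removed, which left 12942.

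Counts were fitted with edgeR 4.0.16 in R 4.3.3 (TMM factors, robust quasi-likelihood fit, 1 mean for each of 8 groups, common dispersion 0.0850), with Benjamini-Hochberg adjustment over all tested genes in each of 14 comparisons. Single members were also compared by exact permutation tests on log2 CPM with a prior count of 2. Alternatives used DESeq2 1.42.0, limma 3.58.1 with sample quality weights, RLE size factors, library totals, no filter, mice of 1 genotype and each mouse left out. Fits of edgeR and limma were tested on simulated data. These had the same dispersion for all genes and no outlying mouse, so groups such as KO HFD were not covered. Python 3.11.15 with pandas 2.3.3, numpy 2.4.6, scipy 1.17.1, matplotlib 3.10.9 and Biopython 1.88 was used for the rest. Promoters came from RefSeq (GRCm38.p6).

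Members and lists were chosen with earlier results of these data known. Named genes were the 10 members, up to 3 called genes of each list with the largest absolute log2 fold change in each comparison, and Il6ra, Il6st, Stat3, Socs3, Cebpb and Cebpd. The list genes given for single mice were chosen after their values were seen. The mice are separate animals with numbers of their own. Libraries held 15788242 to 49857017 counts, and the lowest count of a member in a mouse was 9, for Orm3.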

Additional observations from a re-analysis of the deposited data

Results flagged for a closer look

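In groups of 5 mice, a value stood apart where its gap to the nearest mouse, divided by the range of the group on the log2 CPM scale, passed Dixon's critical value of 0.71. This held for 7 of 80 groups and members, a count not set against chance because the members share mice and are correlated. KO HFD mouse 9 was the highest in 4 of the 7, with a ratio of 0.779 for Saa3, 0.794 for Orm1, 0.782 for Hp and 0.793 for Apcs. For Saa1, Saa2, Orm2 and Lcn2 the second-highest mouse 10 of that group kept mouse 9 below the limit, although its folds were larger. KO HFD-Pio mouse 20 was the highest for Saa1 (0.711) and Lcn2 (0.726). KO Pio mouse 13, the library with a low mitochondrial share, was the lowest for Orm1 (0.887). WT HFD mouse 829 was not among them (0 of its members).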

How the results depend on the processing

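Leaving out each of the 40 mice in turn gave 0 to 4 called members for HFD against control diet in KO mice, 0 to 1 for HFD-Pio against HFD, Pio against control diet and HFD-Pio against Pio in KO mice, for Pio against control diet and HFD-Pio against Pio in WT mice, for the Pio effects on HFD, KO minus WT, and for the HFD effects without Pio, KO minus WT, and 0 in the other 6 comparisons. The calls of Saa2 and Orm2 in KO mice on HFD were lost in 6 of 40 fits each, without HFD mouse 9 or any 1 of the 5 control mice, and that of Orm2 for HFD-Pio against HFD in 36 of 40, all but those without HFD mouse 6, 7, 8 or 10. In KO mice on HFD, Saa1 was called without HFD mouse 6, 7, 8 or 10 or WT HFD mouse 829, and Lcn2 without mouse 6. Without mouse 9, Hp was called for Pio against control diet and Orm1 for HFD-Pio against Pio in WT mice. Without KO Pio mouse 14, Saa4 was called for HFD-Pio against Pio and for Pio against control diet in KO mice. Orm2 was called in the HFD effects without Pio, KO minus WT, without any 1 of 8 mice, and in the Pio effects on HFD, KO minus WT, without HFD mouse 6, 7 or 8.

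Members called changed as follows. The shares of all genes called under these settings are not given here, so the counts do not single out the members. For HFD against control diet in KO mice there were 5 with DESeq2 and 0 with no filter, limma, mice of 1 genotype, or mouse 9 left out with KO Pio mouse 13 or KO HFD mouse 10. For HFD-Pio against HFD in KO mice there were 4 with DESeq2 and 0 with library totals, no filter, limma, mice of 1 genotype and both leave-outs. For Pio against control diet in WT mice there was 1 with limma, mice of 1 genotype and both leave-outs. For HFD against control diet in WT mice there was 1 with limma and mice of 1 genotype, and 2 without mice 9 and 13. For HFD-Pio against Pio in WT mice there were 2 with limma, and 1 with mice of 1 genotype and without mice 9 and 13. DESeq2 called 1 in the Pio effects on HFD and 5 in the HFD effects without Pio, KO minus WT. Counted at 1.5-fold, mouse 845 had 7 raised members and mouse 14 had 8. Leaving out 2 mice together, and the correlations without mice 9 and 13, were chosen after seeing the data.

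Log2 fold changes that turned sign were, for HFD against control diet in KO mice without mice 9 and 10, Saa1 -0.066, Saa2 -0.11, Saa3 -0.12, Orm1 -0.39, Orm2 -0.57, Orm3 -0.70, Lcn2 -0.94, Hp -0.20 and Apcs -0.45. Without mice 9 and 13 they were Saa3 -0.0093, Orm1 -0.22, Orm3 -0.14, Hp -0.072 and Apcs -0.19, and with limma Orm1 -0.18 and Orm3 -0.10. Leaving out single mice gave -0.0098 to 1.89 for Saa3, -0.22 to 1.58 for Orm1, -0.15 to 2.21 for Orm3, -0.075 to 1.24 for Hp and -0.20 to 2.63 for Apcs. For HFD-Pio against HFD in KO mice without mice 9 and 10 they were Saa1 0.93, Saa2 1.69, Orm2 0.18, Lcn2 1.27, Apcs 0.44 and Hp 0.19, with limma Saa2 0.078 and Apcs 0.15, without mice 9 and 13 Apcs 0.19 and Hp 0.062, and over single mice -2.58 to 0.19 for Apcs and -1.25 to 0.064 for Hp. In WT mice on HFD against control diet limma gave Saa1 -0.85 and Saa2 -1.29, and single mice -0.94 to 1.25 and -1.19 to 1.33. For HFD-Pio against HFD in WT mice limma gave Saa1 0.079 and Saa2 0.33, and single mice -1.78 to 0.46 and -1.99 to 0.53. The difference of the Pio effects on HFD for Orm2 was 0.043 without mice 9 and 10. The cause of the changes with limma was not tested. Its lowest weights were 0.0157 for KO Pio mouse 13, 0.135 for WT HFD mouse 829, 0.148 for WT control mouse 832 and 0.262 for KO HFD mouse 9.

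No paired analysis was possible because the numbers are those of single animals and no number occurs in more than 1 group. Groups of 5 mice with 1 mouse far above the rest limit every KO HFD value given here.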
